A study of Mus musculus with 6 samples.

Results

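The antioxidant enzymes described here are 10 genes that dispose of superoxide and peroxides or supply the reducing power for doing so, chosen by name for what their proteins do: *Sod1*, *Sod2*, *Sod3*, *Cat*, *Gpx1*, *Gpx3*, *Gpx4*, *Nqo1*, *Gclm* and *Txnrd1*. They are 10 of the 46078 genes in the count files, and all 10 were among the 15554 genes with enough counts to be tested. RNA sequencing of bulk tissue was done on 3 libraries of infarcted cortex and 3 of contralateral cortex from male wild type C57BL/6J mice, recorded as 3 months of age, 7 weeks after stroke by distal middle cerebral artery occlusion with hypoxia. What counted as infarct tissue was judged by eye at dissection, and each contralateral library is from cortex opposite the lesion. Both regions came from animals that had undergone the stroke, so the contralateral cortex is not cortex of an unoperated or sham animal, and the sample records name no drug treatment for either region. The records do not say which animal each library came from or that each came from a different one, so the p-values below measure the spread between these libraries.

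Superoxide, the first product of electron leak from respiration and of NADPH oxidases, is converted to hydrogen peroxide by superoxide dismutases placed in the cytosol, the mitochondrial matrix and outside the cell. Hydrogen peroxide is then reduced by catalase, by glutathione peroxidases and by peroxiredoxins, and the last of these draw on glutathione or thioredoxin that NADPH-dependent reductases recycle. The transcription factor NRF2 (*Nfe2l2*) drives many of these genes through antioxidant response elements, and neurons and glia are known to differ in how much of this machinery they carry.

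Total counts on genes ran from 12146959 to 13427057 in the infarct libraries and from 11943570 to 19933962 in the contralateral libraries. The cell type markers of the regions were far apart, and they are given because every value below is from bulk tissue, in which fewer cells of a type and less RNA per cell cannot be told apart. All 9 neuronal markers were lower in the infarct, where their summed level was 698.4 to 2084 CPM (counts divided by the TMM-scaled library size and set to a common total) against 10285 to 11224 in contralateral cortex. Macrophage markers (8 of 8) and fibroblast markers (6 of 6) were higher, at sums of 6781 to 10402 CPM against 169 to 224.8 and of 6914 to 8662 against 145.6 to 188.5. By the call described below, with its 2-fold limit, the 7 astrocyte markers were mixed, with 2 higher and 1 lower. By the same call 3 of 6 oligodendrocyte and 3 of 6 microglial markers were higher. By edgeR adjusted p alone, all 6 oligodendrocyte and 4 microglial markers were higher, and of the astrocyte markers 3 were higher and 3 lower. Lymphocyte and plasma cell markers summed to 2116, 769.1 and 198.6 CPM in infarct libraries 1, 2 and 3, with *Cd2* at 0 in all contralateral libraries, so infarct library 1 held the most of these as well as of the macrophage sum. The part of these differences in the enzyme levels was not tested.

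Of the 10 enzymes, 6 were higher in the infarct, 1 was lower and 3 did not pass the test, which was an edgeR quasi-likelihood fit over all 15554 genes with a call at an adjusted p below 0.05 and a change of more than 2-fold. These regions differed so widely that 25.7% of all tested genes were called higher and 20.9% lower, and 65.0% passed the adjusted p alone. For 7 of the 10 enzymes the 3 infarct libraries did not overlap the 3 contralateral ones, which was also so for 72.3% of all genes. The median log2 difference over the 10 was 1.24, from -1.47 for *Sod2* to 6.49 for *Gpx3*, beside a median of 0.03 over all genes. The plots of the levels by library and of the fitted differences show these enzymes side by side.

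**Figure D1:**
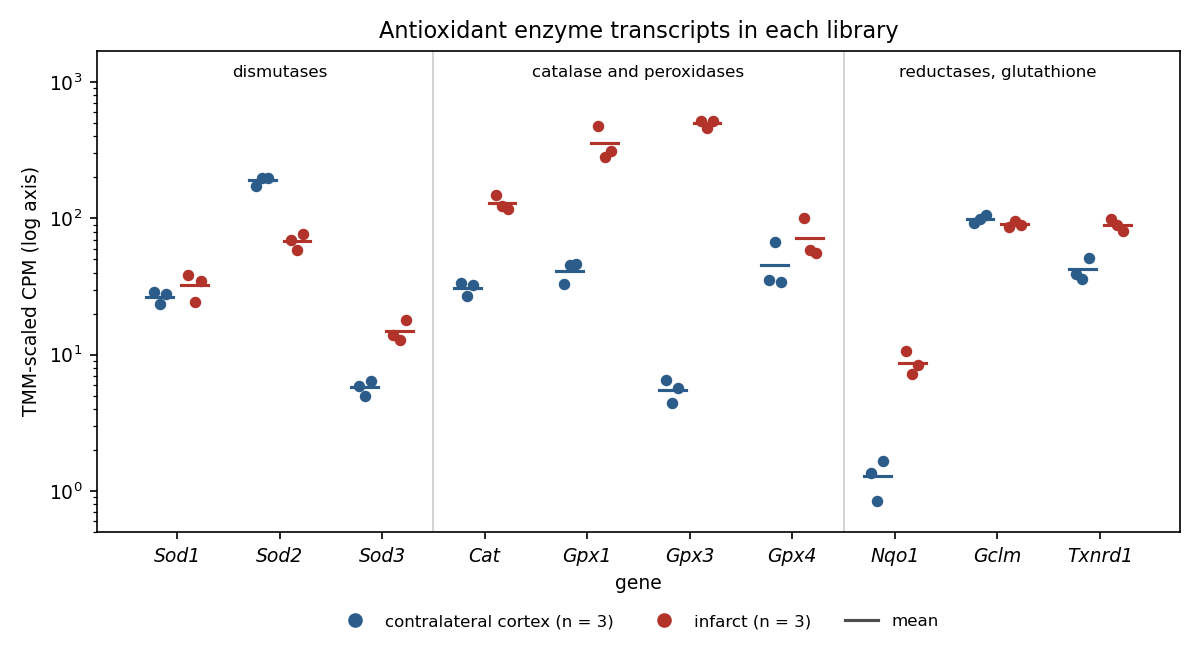
Level of each of the 10 enzymes in each library, in CPM on a log axis. Points are single libraries, 3 per region, and short lines are their means. *Gpx3* moved from 5.53 CPM in contralateral cortex to 498 CPM in the infarct, *Sod2* moved the other way, and the points of *Sod1*, *Gpx4* and *Gclm* overlap between regions.

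**Figure D2:**
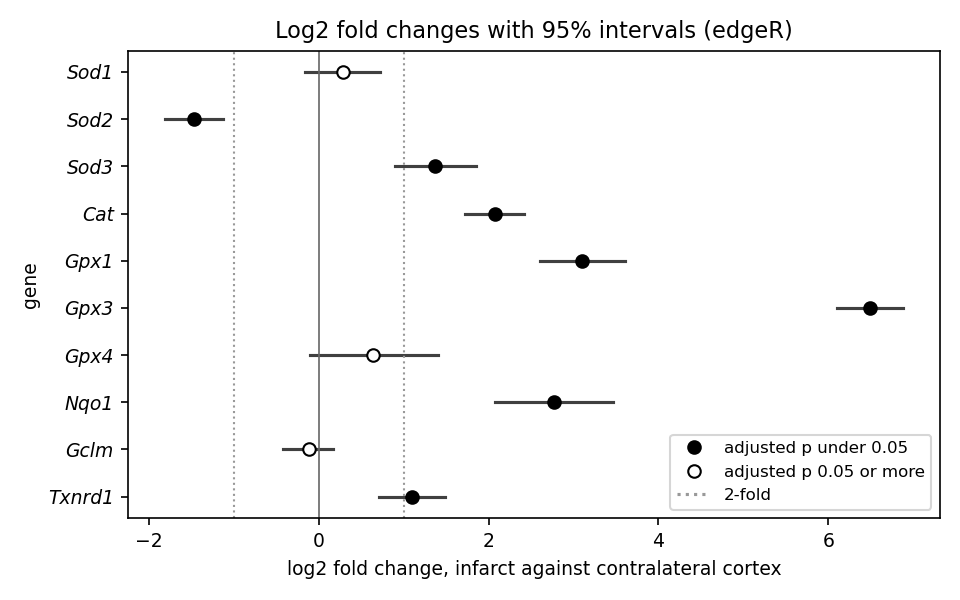
Log2 difference of the infarct from contralateral cortex for each enzyme, with its 95% interval from the edgeR fit. *Gpx3* lies farthest to the right at 6.49, *Sod2* alone lies wholly left of 0 at -1.47, and the intervals of *Sod1*, *Gpx4* and *Gclm* include 0.

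The 3 superoxide dismutases each behaved differently. *Sod2* (chr17:13006846-13040063, plus strand, GRCm38) encodes the manganese dismutase of the mitochondrial matrix. Its level was 69.94, 58.18 and 77.45 CPM in the infarct libraries and 174.1, 196.9 and 199.3 CPM in the contralateral ones. Each infarct library lay below every contralateral library. *Sod2* fell by 1.47 on the log2 scale (SE 0.15, 95% interval -1.81 to -1.13, edgeR adjusted p = 2.42e-05), to 0.361 of the contralateral level. Of the 5861 bases of the main *Sod2* transcript, 6.16% occur in 12 other genes with at least 95% identity over 75 bases or more. Reads that align to more than one place were not counted. Beside *Sod2*, 10 nuclear genes of mitochondrial respiration summed to 1308 to 1703 CPM in the infarct and 1908 to 2410 CPM in contralateral cortex. None of those 10 was called lower by the rule with the 2-fold limit, 4 were lower by edgeR adjusted p alone, and their median log2 difference was -0.53. Transcripts encoded in the mitochondrial genome took 2.71% to 3.549% of the gene counts in the infarct and 5.501% to 6.664% in contralateral cortex. The neuronal marker sum moved in the same direction as *Sod2*, and the part of either in the lower *Sod2* level was not tested.

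*Sod3* (chr5:52363791-52371418, plus strand) encodes the dismutase secreted into the extracellular matrix. It was measured at 13.99, 12.90 and 17.98 CPM in the infarct and at 5.892, 5.006 and 6.452 CPM in contralateral cortex. The lowest infarct library was above the highest contralateral one. *Sod3* was 2.59-fold higher (log2 difference 1.37, SE 0.21, edgeR adjusted p = 0.000316), with an interval of 1.87-fold to 3.6-fold.

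*Sod1* (chr16:90220754-90226329, plus strand) encodes the copper and zinc dismutase found mainly in the cytosol. Its libraries read 38.39, 24.55 and 34.61 CPM in the infarct and 28.73, 23.66 and 27.74 CPM in contralateral cortex. The regions overlapped, since infarct library 2 lay below 2 of the contralateral libraries. The log2 difference was 0.28 (SE 0.20, interval -0.16 to 0.72, edgeR adjusted p = 0.227), so a rise of up to 1.65-fold lies within the interval. Of the 641 bases of the main *Sod1* transcript, 72.5% occur with at least 95% identity over 75 bases or more in the gene *Gm8566*, and reads that align to more than one place were not counted. The *Sod1* level is therefore uncertain, and both regions were counted in the same way. *Ccs*, the chaperone that loads copper into *Sod1*, had a log2 difference of 0.83.

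The glutathione peroxidases among the members, *Gpx1*, *Gpx3* and *Gpx4*, and the cytosolic thioredoxin reductase *Txnrd1* are selenoproteins. In these an in-frame TGA codon is read as selenocysteine at the active site. These windows of 27 bases from the main transcripts show that codon in capitals, since the shared dependence on selenium sets these 4 enzymes apart from the other 6, whose annotated transcripts have none.
Gpx1 (TGA at chr9:108339451-108339453): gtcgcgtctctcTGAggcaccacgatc
Gpx3 (TGA at chr11:54907256-54907258): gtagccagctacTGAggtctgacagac
Gpx4 (TGA at chr10:80054737-80054739): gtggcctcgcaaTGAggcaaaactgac
Txnrd1 (TGA at chr10:82896037-82896039): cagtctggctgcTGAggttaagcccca

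All 4 codons lie on the plus strand of GRCm38, in GENCODE M21 transcripts. In the 3 peroxidases the codon lies well inside the reading frame, and in *Txnrd1* it is next to the end.

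*Gpx3* (chr11:54902453-54910377, plus strand), the secreted peroxidase best known from plasma, had the largest difference of the 10. It read 514.8, 464.1 and 516.4 CPM in the infarct and 6.466, 4.421 and 5.714 CPM in contralateral cortex, from 62 to 124 counts per contralateral library. The infarct libraries were close together and far above all contralateral ones. *Gpx3* was 89.8-fold higher (interval 68.5 to 118, log2 difference 6.49, SE 0.17, edgeR adjusted p = 1.5e-07), which placed its log2 difference at percentile 98.0 of all tested genes. The fibroblast and macrophage marker lists had median log2 differences of 6.59 and 5.30, and the part of those cells in the *Gpx3* level was not tested.

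*Gpx1* (chr9:108338903-108340343, plus strand) encodes the peroxidase of the cytosol and mitochondria. The infarct libraries held 472.8, 283.5 and 310.5 CPM and the contralateral libraries 32.80, 45.44 and 45.99 CPM. Infarct library 1 was the highest, and no infarct library came near a contralateral one. *Gpx1* was 8.6-fold higher in the infarct (interval 6.08 to 12.2, log2 difference 3.10, SE 0.22, edgeR adjusted p = 3.7e-06). Without infarct library 1 the log2 difference was 2.87.

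*Gpx4* (chr10:80047166-80056439, plus strand) encodes the phospholipid hydroperoxide peroxidase that protects cells from ferroptosis. It was counted at 99.90, 58.62 and 55.66 CPM in the infarct and at 35.35, 67.42 and 34.29 CPM in contralateral cortex. The regions overlapped, because contralateral library 2 was above infarct libraries 2 and 3. The log2 difference of 0.64 (SE 0.33, interval -0.11 to 1.40, edgeR adjusted p = 0.12) did not pass. Without contralateral library 2 it was 1.03 with an edgeR adjusted p of 0.0153, past both limits, and without infarct library 1 it was 0.34. Of the 959 bases of the main *Gpx4* transcript, 80.9% occur nearly identically in 2 other genes, one of them the pseudogene *Gpx4-ps2*, which together had 0 counts. Reads from *Gpx4* can be lost as multiply aligned, and its level is uncertain.

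Catalase, encoded by *Cat* (chr2:103453849-103485160, minus strand), is the peroxisomal enzyme that splits hydrogen peroxide without a reducing partner. Its levels were 149.7, 124.1 and 116.7 CPM in the infarct and 33.32, 26.78 and 32.63 CPM in contralateral cortex. Every infarct library was higher than every contralateral library. *Cat* was 4.21-fold higher (interval 3.31 to 5.37, log2 difference 2.07, SE 0.16, edgeR adjusted p = 3.63e-06). *Cat* and *Gpx1* are also abundant in red blood cells, whose 5 markers summed to 30.12, 8.061 and 10.35 CPM in infarct libraries 1, 2 and 3 and to 4.276, 0.8451 and 3.134 CPM in the contralateral ones. The 2 red cell markers with enough counts were both called higher. The part of red blood cells in the *Cat* and *Gpx1* levels was not tested.

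Within each enzyme family the balance between members differed between the regions. Per kilobase of annotated exon, *Sod2* made up 69.6% ± 3.28 (SD, n = 3) of the summed dismutase level in contralateral cortex and 36.1% ± 1.71 in the infarct. The share of *Sod3* was 5.67% ± 0.61 in contralateral cortex and 21.1% ± 2.39 in the infarct. Among the 3 peroxidases, *Gpx3* took 5.56% ± 2.14 of the sum in contralateral cortex and 49.5% ± 6.17 in the infarct, while *Gpx4* took 44.5% ± 8.68 and 7.23% ± 1.31. *Gpx1* had overlapping shares, at 49.9% ± 7.55 and 43.3% ± 4.93. Reads of *Sod1* and *Gpx4* can be lost as multiply aligned, so their own levels may be read too low. All shares of both families, and the ratios below that hold either gene, are uncertain for that reason.

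**Figure D3:**
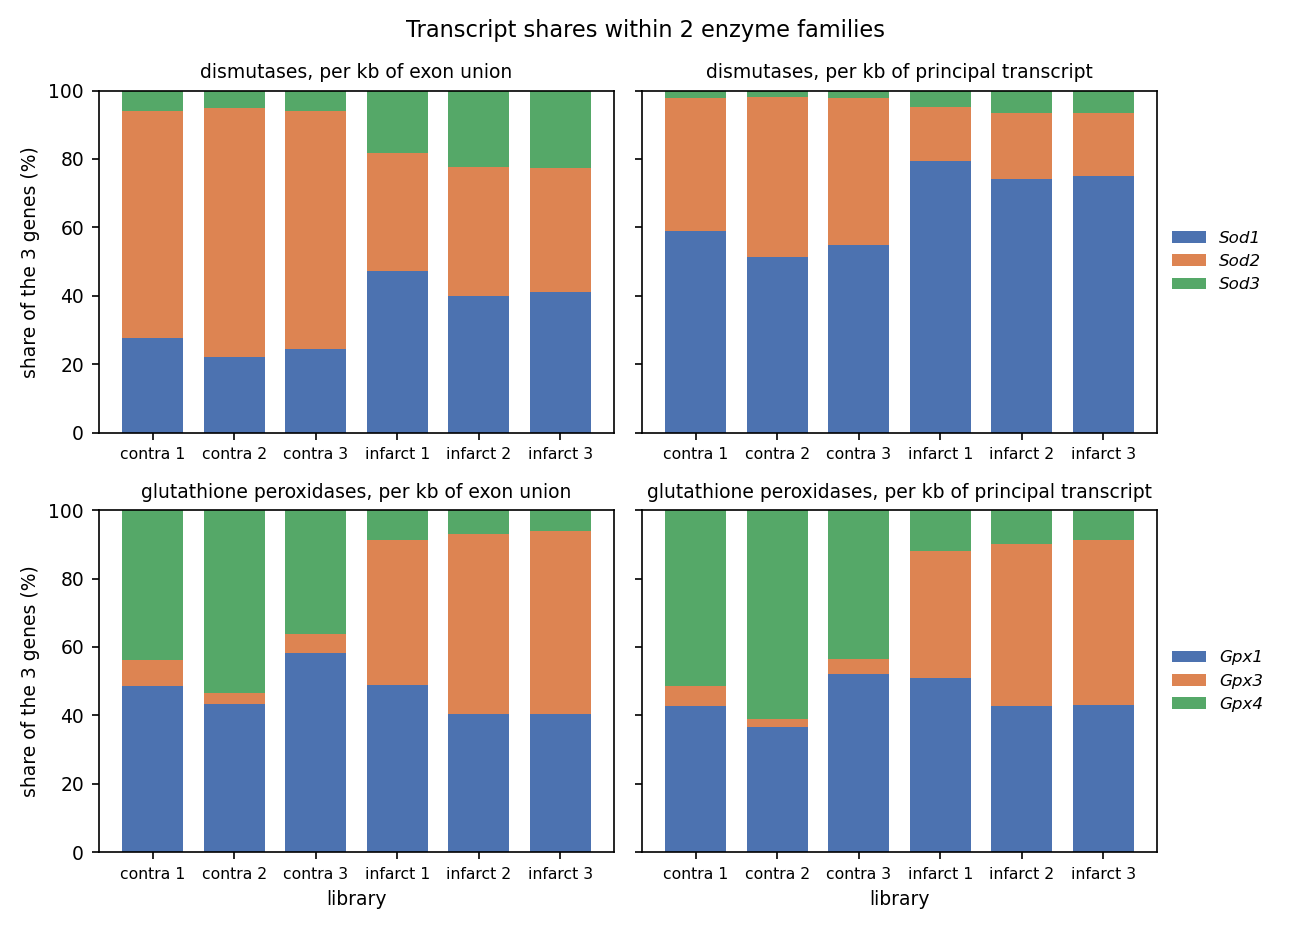
Share of each member in its family's summed level, in percent, with 1 stacked bar for each library. The upper panels hold the dismutases and the lower ones the peroxidases, per kilobase of annotated exon on the left and of the main transcript on the right. By either length *Sod2* has a smaller and *Gpx3* a larger share in every infarct library than in any contralateral one. Reads of *Sod1* and *Gpx4* can be lost as multiply aligned, which makes the sizes of the shares uncertain.

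A log2 ratio between members within a library does not depend on how libraries are scaled, and the difference of that ratio between the regions does not depend on the length used. Per kilobase of annotated exon, the log2 ratio of *Sod1* to *Sod2* was 0.24 ± 0.20 (SD, n = 3) in the infarct and -1.50 ± 0.23 in contralateral cortex, a difference of 1.74. *Sod2* to *Sod3* was 0.78 ± 0.11 and 3.62 ± 0.22, and *Gpx3* to *Gpx4* was 2.78 ± 0.44 and -3.06 ± 0.82. These ratios did not overlap between the regions. The ratios were not tested, and an exact two-sided permutation test of 3 against 3 libraries cannot go below p = 0.1. The shares depend on the length used. Over the main transcript alone, a length added after the data were seen, *Sod1* rather than *Sod2* held the larger part of the dismutase level in contralateral cortex, at 55% against 42.9%. The annotated *Sod1* exons cover 3970 bases in all, against 641 in the main transcript.

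The remaining 3 enzymes are textbook targets of NRF2. *Nqo1* (chr8:107388225-107403206, minus strand) encodes a quinone reductase that keeps quinones out of redox cycling. It was low throughout, at 10.57, 7.255 and 8.379 CPM in the infarct and 1.356, 0.8451 and 1.659 CPM in contralateral cortex, from 13 to 26 counts per contralateral library. The regions were clearly apart. *Nqo1* was 6.84-fold higher (interval 4.22 to 11.1, log2 difference 2.77, SE 0.31, edgeR adjusted p = 4.04e-05).

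*Txnrd1* (chr10:82833951-82897712, plus strand) encodes the cytosolic reductase that recycles thioredoxin. The infarct libraries gave 99.82, 89.18 and 81.41 CPM and the contralateral libraries 39.27, 35.89 and 51.52 CPM. No infarct library overlapped a contralateral one. *Txnrd1* was 2.14-fold higher (interval 1.64 to 2.79, log2 difference 1.10, SE 0.17, edgeR adjusted p = 0.000351), just past the 2-fold limit. Without contralateral library 2 the log2 difference was 0.98 with an edgeR adjusted p of 0.00324, under that limit.

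*Gclm* (chr3:122245557-122270732, plus strand) encodes the modifier subunit of glutamate-cysteine ligase, the rate-limiting enzyme of glutathione synthesis. It read 86.39, 95.63 and 89.58 CPM in the infarct and 91.93, 98.82 and 105.6 CPM in contralateral cortex. The regions overlapped. The log2 difference was -0.12 (SE 0.13, interval -0.42 to 0.17, edgeR adjusted p = 0.423), so changes beyond 1.12-fold up or 0.748 of the contralateral level lie outside the interval. *Gclc*, the catalytic subunit of the same ligase, also had a log2 difference of -0.12 (edgeR adjusted p = 0.506).

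The core of the antioxidant response element, searched as TGACNNNGC on both strands, was found in RefSeq promoters (GRCm38.p6, 250 bases before to 50 after the start) of 3 of the 9 enzymes with a promoter in the table. That is 3 of their 14 promoters, beside 12.4% of all 32851 promoters searched. *Sod3* had no promoter in the table. All 3 matches lie on the opposite strand, so the capitals below mark the reverse complement of the core as it reads along the gene's own strand.
Sod1, chr16:90220696-90220724: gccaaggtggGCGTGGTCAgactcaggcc
Gclm, chr3:122245413-122245441: gctcccgggcGCACCGTCAactctcacga
Txnrd1, chr10:82859104-82859132: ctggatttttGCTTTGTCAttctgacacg

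The matches begin at 56, 134 and 92 bases before the start, for *Txnrd1* in 1 of its 3 promoters. They fall on 1 enzyme that was called higher and 2 that did not pass. A match is a description of the letters, and the windows of *Sod2*, *Cat*, *Gpx1*, *Gpx3*, *Gpx4* and *Nqo1* did not hold these letters.

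The order of the enzymes by level also differed. Per kilobase of annotated exon, *Gpx3* (274.9 ± 16.41 CPM per kilobase, SD, n = 3) and *Gpx1* (246.8 ± 71.06) led in the infarct, with overlapping libraries. *Cat* (49.82 ± 6.627) and *Gpx4* (41.41 ± 14.35) followed and overlapped each other. *Gclm* (14.39 ± 0.746) and *Txnrd1* (12.72 ± 1.304) came next, and *Sod1*, *Sod2*, *Nqo1* and *Sod3* ran from 8.191 to 4.001, each overlapping the next. In contralateral cortex *Gpx1* (28.74 ± 5.178), *Gpx4* (26.5 ± 10.92) and *Sod2* (18.99 ± 1.39) led as an overlapping chain. *Gclm* (15.7 ± 1.086) and *Cat* (11.83 ± 1.375) came next, *Sod1* (6.728 ± 0.6769) and *Txnrd1* (5.959 ± 1.161) overlapped, and *Gpx3* (3.052 ± 0.5705), *Sod3* (1.547 ± 0.1951) and *Nqo1* (0.8285 ± 0.2649) were lowest. *Gpx3* thus stood at place 8 in contralateral cortex and 1 in the infarct, and *Sod2* at 3 and 8. Over the main transcripts *Gpx1* (331.7 CPM per kilobase) lay above *Gpx3* (312.7) in the infarct, and *Sod1* lay at 50.73 there and 41.67 in contralateral cortex. The places of *Sod1* and *Gpx4* are uncertain by either length, since their reads can be lost as multiply aligned.

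The wider pathway was read from 9 further lists of 102 genes, of which 91 were tested. Of these 91, 39 were called higher in the infarct, 7 were called lower and 45 were not called, with a median log2 difference of 0.81. By edgeR adjusted p alone, 51 were higher, 11 were lower and 29 did not pass, where 65.0% of all tested genes passed. The called counts, here and for the single lists below, are to be read beside the 25.7% of all tested genes called higher and the 20.9% called lower. The plot of the pathway genes shows the lists side by side. For each list the genes with the highest and lowest log2 difference and the highest level per kilobase of annotated exon in either region are named. In addition, *Ccs*, *Gclc*, *Prdx3*, *Keap1*, *Slc7a11*, *Gstm5*, *Bach1*, *Srxn1*, *Me1*, *Idh2*, *Txn2* and *Txnrd2* were named after their values were seen.

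**Figure D4:**
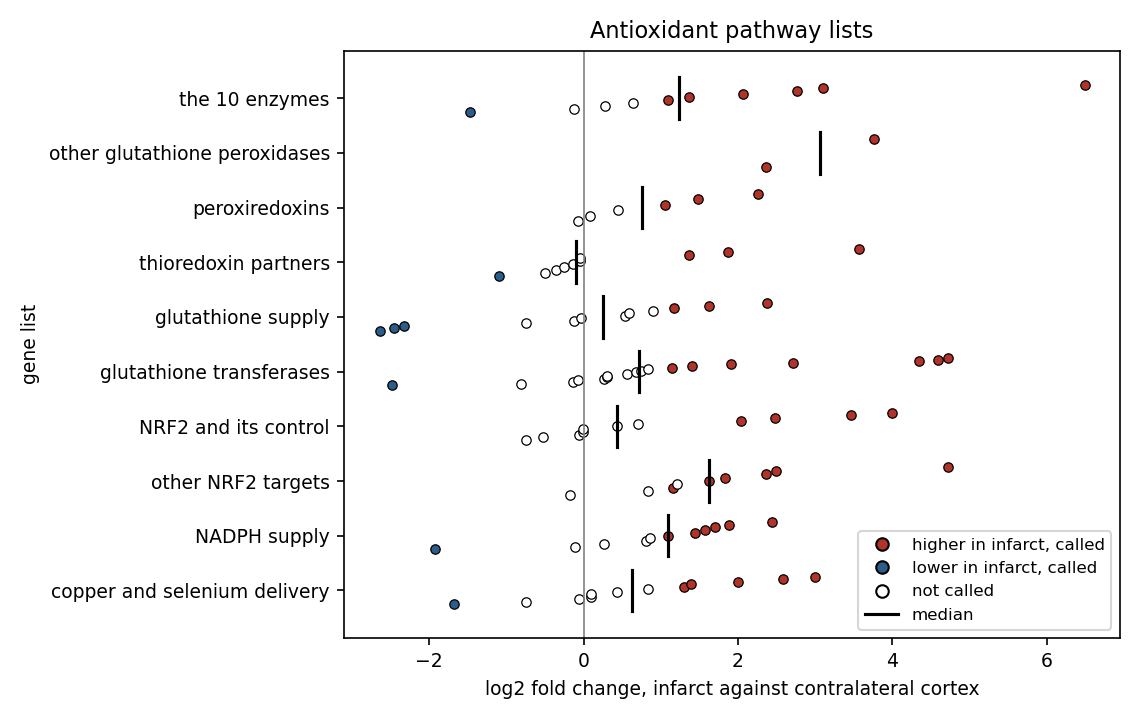
Log2 difference of the infarct from contralateral cortex for each tested gene of the 9 pathway lists and for the 10 enzymes, with a line at each list's median. Most lists spread to both sides of 0, with medians between -0.09 and 3.07, and the 2 further glutathione peroxidases tested are both on the right.

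Among the further glutathione peroxidases, *Gpx7* (log2 difference 2.37) and *Gpx8* (3.76), both enzymes of the endoplasmic reticulum, were the 2 of 5 that were tested and both were higher. *Gpx2*, *Gpx5* and *Gpx6* had too few counts. Of the 6 peroxiredoxins, which reduce peroxides with thioredoxin or glutathione, 3 were higher and none lower, with a median of 0.76. *Prdx1* was highest at 2.26, *Prdx5* lowest at -0.07, and *Prdx6* had the highest level per length, with 482 ± 76.8 CPM in the infarct and 231 ± 32.2 in contralateral cortex (SD, n = 3). *Prdx3*, which shares the mitochondrial matrix with *Sod2*, had a log2 difference of 0.45 (edgeR adjusted p = 0.0183), of opposite sign to that of *Sod2*. Other mitochondrial genes of the lists varied, with *Idh2* at 1.10, *Txnrd2* at -0.05, *Txn2* at -0.14, *Glrx2* at -1.09 and *Me3* at -1.93.

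Of 10 thioredoxin partners, 3 were higher and 1 lower, around a median of -0.09. *Txnip*, which binds and restrains thioredoxin, had a log2 difference of 3.57, and *Glrx2*, a mitochondrial glutaredoxin, had -1.09. Glutathione supply was split, with 3 of 12 genes higher and 3 lower. *Ggt5*, a gamma-glutamyl transferase, was highest at 2.38 and its relative *Ggt7* lowest at -2.64, while *Slc3a2*, the heavy chain shared by several amino acid transporters, had the highest level per length and a log2 difference of 0.59. *Slc7a11*, the cystine importer that pairs with it, read 1032, 310 and 498.3 CPM in the infarct and 224.2, 178.6 and 194.9 CPM in contralateral cortex. Infarct library 1 stood far above the others, and the log2 difference was 1.62 (edgeR adjusted p = 0.00954).

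Among 18 tested of 25 glutathione transferases, 7 were higher and 1 lower. *Mgst2* had the highest log2 difference at 4.72, on few contralateral counts, *Mgst3* the lowest at -2.48, and *Mgst1*, a microsomal transferase that also acts as a peroxidase, the highest level per length in the infarct, with 94.5 ± 11.7 CPM against 3.91 ± 0.611 in contralateral cortex (edgeR adjusted p = 1.77e-07). There *Gstm5* had the highest level per length, at 31.8 CPM per kilobase. *Gsta1*, *Gsta2*, *Gsta3*, *Gstm3*, *Gstp2*, *Gstp3* and *Gstt4* were not tested.

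Of 11 genes listed for NRF2 itself, a related factor, its partners and its control, 4 were higher and none was called lower. *Nfe2l2* itself was at 263 ± 62.3 CPM in the infarct and 23.7 ± 0.58 CPM in contralateral cortex (SD, n = 3), a log2 difference of 3.47 (edgeR adjusted p = 5.92e-07). *Maff*, a small Maf protein that pairs with NRF2, was highest at 4.0. *Bach1*, a repressor of NRF2 targets, was also called higher, at 269 ± 36.4 CPM against 48.3 ± 1.2 (log2 difference 2.48, edgeR adjusted p = 8.86e-07). *Cul3*, the scaffold of the ligase that degrades NRF2, was lowest at -0.74. *Cul3* passed the adjusted p (edgeR adjusted p = 0.00114) with a change under 2-fold. *Keap1*, the adaptor of that ligase, stood at -0.01. Among 9 tested of 10 further NRF2 targets, 6 were higher and none lower, with a median of 1.62, and *Osgin1* was not tested. *Hmox1*, which degrades heme, was at 38.4 ± 5.94 CPM against 1.53 ± 0.908 (log2 difference 4.72, edgeR adjusted p = 3.14e-06). *Akr1a1*, an aldehyde reductase with the highest level per length, had a log2 difference of 1.16, and *Cbr1*, a carbonyl reductase, the lowest at -0.18. Other known targets stand in the other lists and are not in these counts. Of those, *Pgd* (2.44) and *Slc7a11* (1.62) were higher, while *Srxn1* (-0.04), *Me1* (-0.11) and *Gclc* (-0.12) did not pass. The NRF2 targets among the 10 enzymes were mixed as well, with *Nqo1* and *Txnrd1* higher and *Gclm* not passing.

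NADPH supply had 6 of 11 genes higher and 1 lower. *Pgd*, of the pentose phosphate pathway, was highest at 2.44, the mitochondrial malic enzyme *Me3* lowest at -1.93, and the cytosolic isocitrate dehydrogenase *Idh1* had the highest level per length in the infarct and a log2 difference of 1.70. Of 12 genes of copper and selenium delivery, 5 were higher and 1 lower. *Selenop*, the selenium carrier, was at 5201 ± 1068 CPM in the infarct and 649 ± 78.4 CPM in contralateral cortex (log2 difference 3.00, edgeR adjusted p = 2.87e-06), while *Lrp8*, a receptor that takes it up in brain, was lowest of its list at -1.68. *Prdx5*, *Txnip*, *Selenop* and *Gstm5* overlap genes on the other strand (*Trmt112*, *Gm15441*, *Ccdc152* and *4933431E20Rik*). For *Gstm5* that gene had 7079 counts over all libraries, against 2756 on *Gstm5* itself. *Keap1*, *Ggt7*, *Gclm*, *Txnrd2*, *Me3* and *Me1* overlap such genes too, over 10.9% of their exon bases (*Keap1*) or less. *Prdx1* has near copies elsewhere (*Gm21399* and *Gm7204*), and so do parts of *Slc7a11*, *Lrp8* and *Me1*. With the strand setting of the counting not known, reads of the overlapping pairs may not have been told apart.

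The genes whose levels followed 9 of the enzymes most closely over the 6 libraries are given as a description, since the libraries fall into 2 regions. For *Gpx3* they were *Mgp*, *Klf4* and *Cd68*, with Pearson's r of 0.9998, 0.9997 and 0.9996. For *Cat* the closest was *Nfkbie* (r = 0.9996), for *Gpx1* *Specc1l* (0.9997), for *Nqo1* *Cotl1* (0.9998), for *Txnrd1* *Tapbpl* (0.9992) and for *Sod3* *Trmt112* (0.9979). The difference between the regions enters every such value, and 3406 genes had an r above 0.95 with *Cat*. The 3 enzymes that did not pass had few such neighbours, 18 for *Sod1*, 21 for *Gpx4* and 8 for *Gclm*, led by *Sephs2* (0.9822), *Cdc37* (0.9922) and *Hspa1a* (0.9866).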

How the data were processed

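Per the labels and the methods of the study, poly(A) RNA was sequenced as paired reads, aligned with STAR to GRCm38 and counted per gene with htseq-count. The counting version, annotation and strand setting are not given in the sources used here. The values are whole-number read counts that the authors deposited per library, without normalization. The 5 rows per file that name no gene were left out of library sizes, and 65.74% to 73.36% of each library's counted reads were on genes. Gene identifiers were matched to GENCODE M21, in which 45229 of 46078 had a symbol.

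Counts were filtered with filterByExpr, scaled by TMM and tested with edgeR 4.0.16 (glmQLFit, robust, and glmQLFTest, two-sided, R 4.3.3) with Benjamini-Hochberg adjustment over 15554 genes. CPM are counts over TMM-scaled library sizes, and errors are SDs of 3 libraries per region. The code was tested on simulated counts. Near copies were searched with BLAST. Named pathway genes were the highest and lowest log2 difference and the highest level per length of each list, and likeness was Pearson's r on log2 CPM. Likeness for *Sod2* is not reported here. The members and lists were chosen with earlier results of these data known. Alternatives used DESeq2 1.42.0, limma 3.58.1, other scalings and filters, and each library left out.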

Additional observations from a re-analysis of the deposited data

How the results depend on the processing

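The 10 enzymes were refitted under 17 alternatives. The count called higher was 6 under each except testing directly against a 2-fold change, where it was 5, and the count called lower was 1 under all. Leaving out each library in turn gave 6 to 6 higher, 1 to 1 lower and 7 to 8 past the adjusted p, but without contralateral library 2 the 6 included *Gpx4* and not *Txnrd1*. *Txnrd1* lost its call against the 2-fold change (edgeR adjusted p = 0.273), and *Sod1* passed the adjusted p without infarct library 2 (log2 difference 0.47, edgeR adjusted p = 0.0444). Scaling by library totals moved the median log2 difference of all genes by 0.20, and under it *Gclm* had a difference of 0.08 in place of -0.12 (edgeR adjusted p = 0.593) and *Gpx4* passed the adjusted p at 0.84 (edgeR adjusted p = 0.0442). The cause was not tested. Pathway genes called higher numbered 29 to 45 over all alternatives and 38 to 40 with a library left out, and those called lower 6 to 7. Deviations of same-numbered libraries from their region means correlated at -0.19, 0.101 and 0.0011. These values cannot decide whether such libraries share an animal, since deviations from a mean of 3 libraries depend on each other. With the replicate block the counts were 6 higher, 1 lower and 7 past the adjusted p. Depth limited most the contralateral values of *Nqo1*, at 13 to 26 counts, and groups of 3 were too small for a search for outlying libraries.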
